A study of Mus musculus with 6 samples.

Results

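The genes of sterol and fatty acid synthesis were followed after deletion of Hes1 in mouse T-ALL, which is acute lymphoblastic leukemia arising from precursors of T cells. The genes were chosen by function, with earlier results of these data known, and found on the arrays by gene symbol. The set holds 40 genes, of which 32 could be tested among 11241 features in all. It has 8 genes of the mevalonate branch, 11 of the sterol branch, 13 of the fatty acid branch, 4 regulators of the SREBP transcription factors, and 4 genes of sterol transport and the LXR nuclear receptors. RNA was read on Illumina bead arrays from 3 KO samples, in which 36 hours of 4-hydroxy-tamoxifen deleted Hes1, and from 3 WT samples, given ethanol for 36 hours. Every sample in both groups carried the same alleles, namely the activated NOTCH1 form ΔE-NOTCH1, a Cre-ERT2 recombinase at Rosa26, and Hes1flox/flox. Rosa26 is active in most cell types, so this Cre is not restricted to T cells. The leukemias came from bone marrow transduced with a retrovirus and grown in irradiated NRG immunodeficient mice. Cultured cells and tumors of tamoxifen-treated recipients are both described in the labels, so the origin of each RNA is unsettled. They call the replicates biological without saying whether these came from separate leukemias, so a p-value here reflects sample-to-sample spread that may be technical in part. Cells with intact Hes1 never received the drug, so loss of Hes1 and exposure to the drug cannot be told apart in any difference between KO and WT given here.

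Cells build cholesterol from acetyl-CoA. The mevalonate branch makes isoprenoid units, which also serve to anchor some signalling proteins in membranes, and the sterol branch joins them into squalene and closes and trims the rings. The fatty acid branch makes, lengthens and desaturates acyl chains from the same precursor. Most of these genes are switched on by the SREBP factors, which the protein SCAP escorts out of the endoplasmic reticulum when sterols are low and which INSIG proteins hold back when sterols are high. Surplus sterol instead activates the LXR receptors, which raise the exporters ABCA1 and ABCG1. Dividing lymphocytes are known to need this program for new membranes.

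Hes1 checked the labels. Its normalised log2 intensity was 4.51, 4.44 and 4.66 on KO replicates 1, 2 and 3, where it was not detected, against 10.97, 11.15 and 10.82 on WT replicates 1, 2 and 3, so it was at least 53.5-fold lower in KO (limma adjusted p 1e-06). The mean signal per probe was 520 to 687 intensity units on the KO arrays and 703 to 713 on the WT arrays, with KO replicate 1 the dimmest. Of 14 T-cell precursor markers with a named probe, 9 were detected on all 6 arrays, among them the CD3 chain genes Cd3d, Cd3e and Cd3g, while Cd5, Cd7, Cd8a and Rag2 were detected on none. No B cell (0 of 3), myeloid (0 of 6) or hepatocyte and adipocyte (0 of 4) marker passed the detection filter, and 1 of 3 erythroid and 1 of 5 stromal and endothelial markers did. The stromal and endothelial marker was Pecam1, at 10.20, 9.70 and 9.89 in KO, against 9.22, 9.59 and 9.40 in WT (limma adjusted p 0.378), and its part in the results was not tested. In RNA from bulk samples, fewer cells of a type and less RNA per cell cannot be told apart.

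No member passed the test over all features: 0 of 32 had an adjusted p under 0.05 in limma, as did 7 of all 11241 features (0.0623%). At an unadjusted p under 0.05, 7 members had higher values in KO, where 5.00% of all features did, and 1 had a lower value, where 4.27% did. The members with higher values were Mvd, Elovl6, Sqle, Scap, Srebf2, Pmvk and Idi1, which lie in the 3 synthesis branches and among the regulators, and the member with the lower value was Sc5d. All 3 KO values lay above all 3 WT values in 8 members, where 8.49% of features did so, and below them in 1, where 7.69% did. Of the 32 members, 21 had higher values in KO (50.5% of all features did) and 11 had lower values (49.5% did). Their median log2 change was 0.12, beside 0.00 over all features. Since the set was chosen with earlier results of these data known, an excess over these shares is no independent support for a difference. Where arrays were scaled to a common median instead of by quantiles, which moved the median of all features to -0.17, the split was 7 higher and 25 lower, and 21 of the 32 lay above the median of all features. With that scaling 1 member had a higher and 3 had a lower value in KO at an unadjusted p under 0.05. When KO replicate 1 was left out, 10 members had an unadjusted p under 0.05 in the higher direction and 2 in the lower, and without WT replicate 1 the counts were 3 and 2. The higher count was 4 when KO replicate 3, WT replicate 2 or WT replicate 3 was left out. For these alternatives the share of all features at that level was not counted. The shifts in count therefore do not speak for the members alone.

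**Figure D1:**
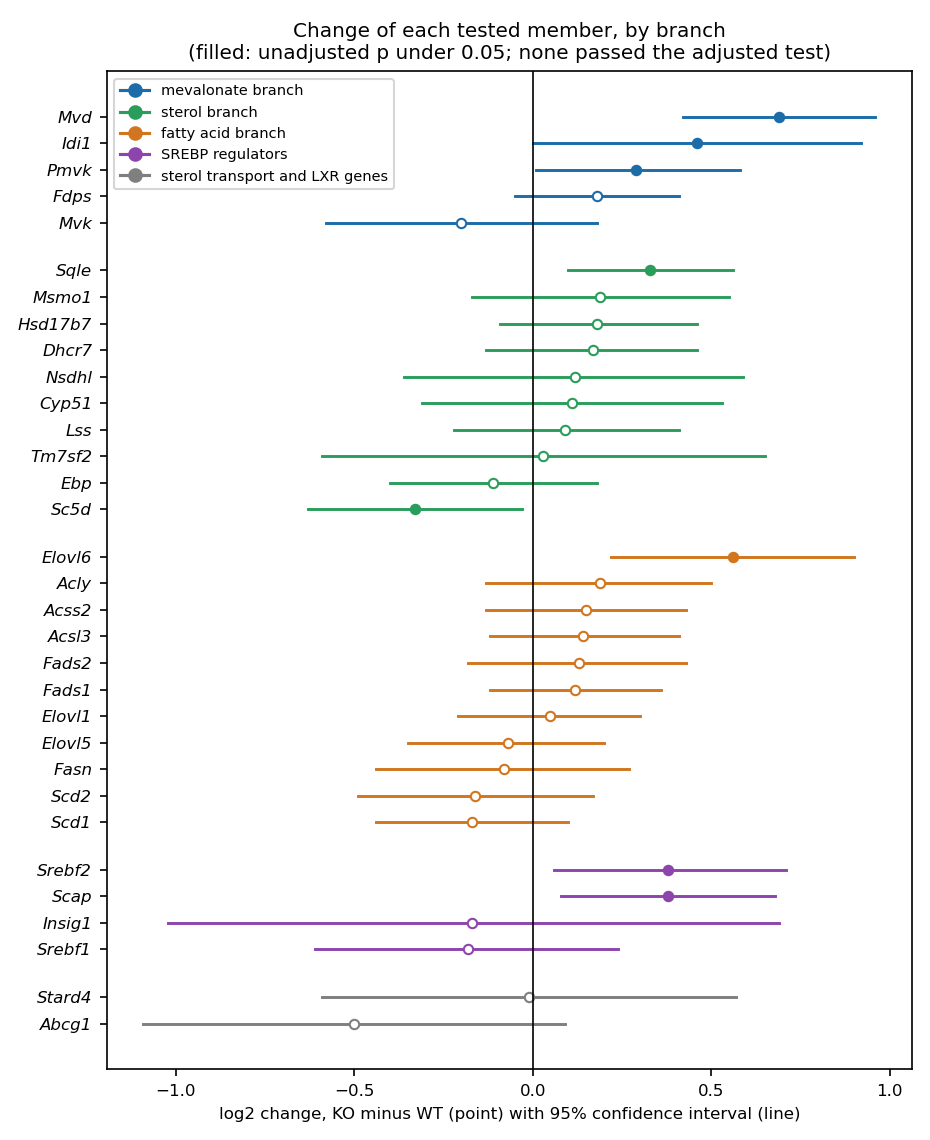
Log2 change, KO minus WT, of each of the 32 tested members (points) with its 95% confidence interval from limma (lines), grouped by branch, with filled points where the unadjusted p was under 0.05. Mvd stands furthest right at 0.69, Sc5d is the 1 filled point left of zero, and the intervals of Insig1, Stard4, Abcg1 and Tm7sf2 are wide.

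Of the other 8 members, 4 (Acat2, Hmgcs1, Fdft1 and Nr1h2) were on no probe named here, and 4 (Ggps1, Me1, Acaca and Abca1) were detected on none of the 6 arrays. Their expression was not analysed further, though promoter windows of some of them entered the motif search below. Of the 32 tested, 31 were detected on all 6 arrays and Fasn on 3. Since a member enters only when its signal clears background, these counts speak for the detected members and not for all 40.

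Promoter sequence was a property that the choice of genes did not use. RefSeq windows of 300 bases (GRCm38.p6), from 250 before to 50 after a transcription start, were at hand for 32 members, 40 windows in all, and were searched on both strands. These are not the same 32 members as those tested: 25 tested members had a window, and the rest were untested. The NF-Y box CCAAT, bound by a factor that works beside SREBP at many of these promoters, was present in 26 of the 40 member windows (65.0%), and in 37.4% of all 32851 windows. More than 1 such box lay in 12 of the 40 member windows (30.0%), and in 11.7% of all windows. The boxes known to bind HES and related repressors were also searched. The N-box CACNAG was in 52.5% of member windows and 42.5% of all windows, the class C site CACGCG in 17.5% and 9.27%, and the E-box CACGTG in 20.0% and 7.15%. A stretch can match more than 1 of these motifs. Some genes entered with more than 1 window, and these can overlap. The Scap windows do, so the same E-box and N-boxes were counted in both. By gene, the N-box was in 16 of the 32 members, the class C site in 7 and the E-box in 7. Shares by gene were not counted over all genes. The sterol regulatory element searched as TCACNCCAC was in 1 of 40 member windows (2.5%), that of Hmgcs1, and in 1.24% of all windows. Only this fixed pattern was searched, so sites that differ from it at any other base were not counted.

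The NF-Y box was spread unevenly over the lists. It was in the windows of 9 of 9 sterol branch genes, 6 of 7 mevalonate genes, 7 of 10 fatty acid genes, 3 of 4 SREBP regulators and 0 of 2 transport and LXR genes. Here a gene counted if any of its windows held a match, as for Dhcr7, which also has windows without one. These counts by gene therefore cannot be set against the share of all windows given above. Among tested members with a window, the 22 with an NF-Y box had a median log2 change of 0.11 and the 3 without had 0.38. The 13 with an N-box had a median of 0.13, as did the 12 without. The 7 with a class C site had a median of 0.14 and the 18 without had 0.11. The 6 with an E-box had a median of 0.05, with 3 higher and 3 lower values in KO, and the 19 without had 0.13. A match describes letters in a window and is not evidence that a factor binds there. The stretch just before the most upstream start, written 5′ to 3′ with matches to the NF-Y box, N-box, class C site or E-box in capitals, are given for Mvd, the member with the smallest p, for Elovl6, the fatty acid gene with the smallest p, for the regulator Srebf2, and for Sc5d, the member with a lower value in KO.
Mvd (chr8:122443423-122443597, minus strand): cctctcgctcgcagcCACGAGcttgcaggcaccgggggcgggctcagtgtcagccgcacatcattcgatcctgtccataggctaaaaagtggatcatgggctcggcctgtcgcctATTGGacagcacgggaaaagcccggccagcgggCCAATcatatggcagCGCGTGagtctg
Elovl6 (chr3:129532211-129532385, plus strand): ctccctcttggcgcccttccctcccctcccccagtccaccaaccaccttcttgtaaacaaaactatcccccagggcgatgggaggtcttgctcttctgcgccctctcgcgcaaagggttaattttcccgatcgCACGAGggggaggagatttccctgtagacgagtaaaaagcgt
Srebf2 (chr15:82147094-82147268, plus strand): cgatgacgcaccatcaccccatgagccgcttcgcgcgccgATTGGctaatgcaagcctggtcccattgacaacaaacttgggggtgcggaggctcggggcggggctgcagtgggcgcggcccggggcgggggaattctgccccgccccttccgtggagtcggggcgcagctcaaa
Sc5d (chr9:42264301-42264475, minus strand): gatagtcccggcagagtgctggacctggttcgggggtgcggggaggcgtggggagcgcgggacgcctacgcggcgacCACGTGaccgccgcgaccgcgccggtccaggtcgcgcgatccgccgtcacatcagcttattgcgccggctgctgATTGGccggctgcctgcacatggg
Counted back from -1, the base just before the start, the Mvd capitals mark an N-box beginning at -160, NF-Y boxes at -60 (opposite strand) and -27, and a class C site at -12 (opposite strand). Elovl6 has an N-box beginning at -42. Srebf2 has an NF-Y box at -135, on the opposite strand. Sc5d has an E-box at -98 and an NF-Y box at -24, the NF-Y box on the opposite strand.

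**Figure D2:**
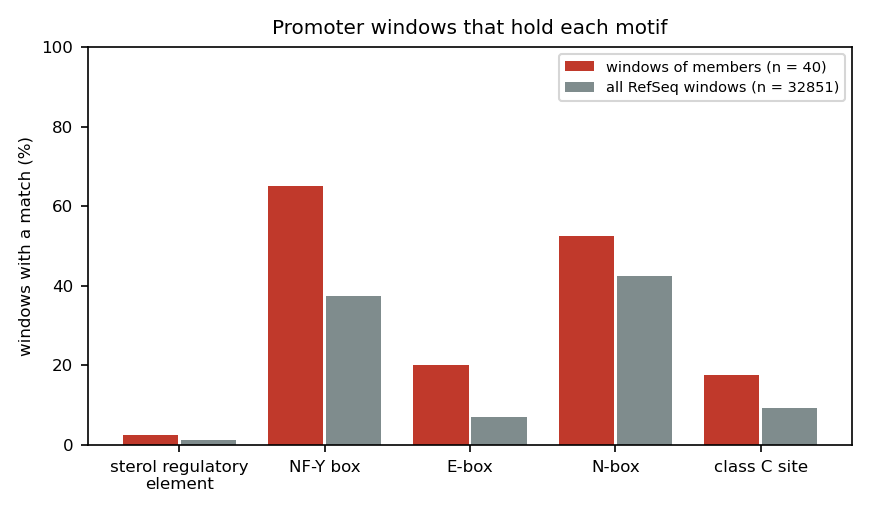
Percent of promoter windows with at least 1 match to each motif, for the 40 windows of member genes (left bars) and all 32851 RefSeq windows (right bars). The NF-Y box is in 65.0% of member windows, against 37.4% of all windows.

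In the mevalonate branch 5 of 8 genes were tested, 4 had higher and 1 a lower value in KO, and the median log2 change was 0.29. The genes at an unadjusted p under 0.05 were 3, all with higher values, where 5.00% of all features did so. In this branch 0 passed the adjusted test. Mvd encodes mevalonate diphosphate decarboxylase, which makes isopentenyl diphosphate, the basic isoprenoid unit. It measured 10.47, 10.46 and 10.22 on the normalised log2 scale on KO replicates 1, 2 and 3, against 9.63, 9.69 and 9.76 on the WT replicates. The groups lay apart by more than the spread within either, at 10.38 ± 0.14 in KO and 9.69 ± 0.07 in WT (SD, n = 3 each), or 1.61-fold. The log2 change was 0.69 ± 0.12 (SE), with an unadjusted p of 0.000468 and an adjusted p of 0.136 in limma, and it ranked 37 of all 11241 features. Over 17 alternative settings its adjusted p ran from 0.028 to 0.462 and was under 0.05 in 5.

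The next steps of the branch had smaller differences. Pmvk, the kinase just before Mvd in the pathway, measured 8.05, 8.04 and 8.32 in KO, against 7.84, 7.92 and 7.76 in WT, a log2 change of 0.29 ± 0.12 (SE) with an adjusted p of 0.509 in limma. Its groups did not overlap. Idi1, which interconverts the basic isoprenoid units, measured 5.65, 6.17 and 6.29 in KO, against 5.72, 5.70 and 5.32 in WT. Here KO replicate 1 lay inside the WT range, and the log2 change was 0.46 ± 0.20 (adjusted p 0.539 in limma). Over 16 alternatives it ran from 0.15 to 0.75, and without KO replicate 1 it was 0.67. Fdps joins these units into farnesyl diphosphate. It measured 13.96, 13.88 and 13.91 in KO, against 13.71, 13.76 and 13.74 in WT. The groups did not overlap, with SDs of 0.04 in KO and 0.03 in WT, and the change of 0.18 ± 0.10 gave an adjusted p of 0.626 in limma. A second Fdps probe measured 9.55, 8.96 and 8.96 in KO, against 8.63, 8.81 and 8.56 in WT, a difference of 0.49. Mvk, mevalonate kinase, went the other way, at 5.41 ± 0.16 in KO and 5.61 ± 0.27 in WT (SD, n = 3 each), with overlapping groups.

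**Figure D3:**
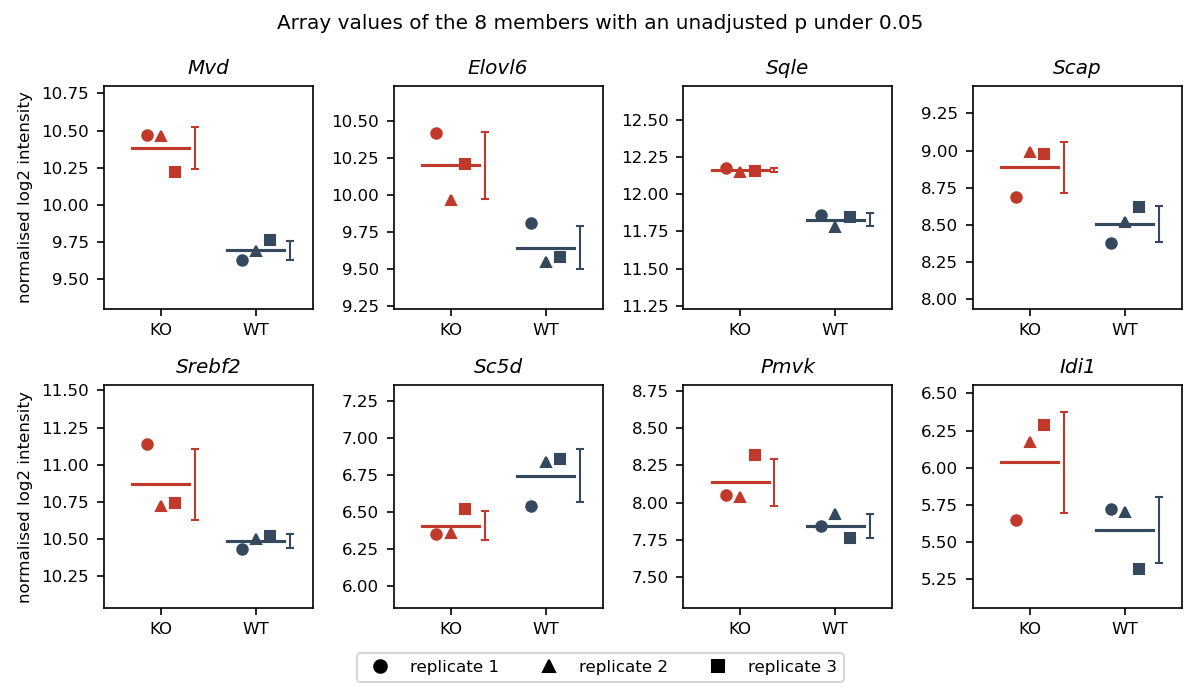
Normalised log2 intensity on each array for the 8 members with an unadjusted p under 0.05, with KO at the left and WT at the right of each panel. Horizontal lines are group means, side bars are 1 SD (n = 3 each), symbols mark the replicate, and each panel spans 1.5 log2 units. The groups overlap in Idi1 and in no other panel.

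In the sterol branch 10 of 11 genes were tested, with 8 higher and 2 lower values in KO and a median log2 change of 0.11. At an unadjusted p under 0.05 there was 1 gene in each direction, beside 5.00% of all features higher and 4.27% lower. Of the 10 genes, 0 passed the adjusted test. Sqle, squalene epoxidase, a rate-limiting enzyme that adds the oxygen needed for ring closure, measured 12.18, 12.15 and 12.16 in KO, against 11.86, 11.78 and 11.85 in WT. Its groups stood apart with a within-group SD of 0.03, smaller than all but 0.489% of features, and the log2 change was 0.33 ± 0.10 (SE, adjusted p 0.373 in limma). A second Sqle probe gave 0.16. Sc5d, a desaturase near the end of the pathway, measured 6.35, 6.36 and 6.52 in KO, against 6.54, 6.84 and 6.86 in WT, a change of -0.33 ± 0.13 (adjusted p 0.483 in limma). All its KO values lay below its WT values, though KO replicate 3 and WT replicate 1 nearly met.

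The enzymes between these steps had overlapping groups. Lss, which closes lanosterol, differed by 0.09, and Cyp51, the demethylase that starts its trimming, by 0.11 on the log2 scale. The demethylation genes Msmo1, Nsdhl and Hsd17b7 differed by 0.19, 0.12 and 0.18, and the reductase Tm7sf2 by 0.03. A second Lss probe gave -0.05, and the other Nsdhl probes ran from -0.16 to 0.07. Hsd17b7 measured 9.62, 9.90 and 9.81 in KO, against 9.67, 9.50 and 9.61 in WT, with only KO replicate 1 inside the WT range. Ebp encodes the sterol isomerase that tamoxifen is known to inhibit. It measured 10.06, 10.39 and 10.34 in KO, against 10.42, 10.35 and 10.35 in WT, a change of -0.11 with a 95% confidence interval of -0.40 to 0.18. Dhcr7, the reductase that ends one route to cholesterol, measured 8.36, 8.43 and 8.63 in KO, against 8.23, 8.22 and 8.46 in WT, a change of 0.17 with an interval of -0.13 to 0.46. The intervals of Ebp and Dhcr7 therefore leave room for differences of either sign. The branch median depended on the arrays used: leaving out KO replicate 1 gave 0.24, and leaving out KO replicate 2 gave 0.00.

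In the fatty acid branch 11 of 13 genes were tested, 7 with higher and 4 with lower values in KO and a median log2 change of 0.12. In this branch 0 passed the adjusted test. Elovl6 was the 1 gene at an unadjusted p under 0.05, higher in KO as were 5.00% of all features. It encodes the elongase that extends palmitate to stearate. It measured 10.42, 9.97 and 10.21 in KO, against 9.81, 9.55 and 9.58 in WT, all KO values above all WT values. The log2 change was 0.56 ± 0.15 (SE), or 1.47-fold, with an unadjusted p of 0.00599 and an adjusted p of 0.316 in limma. Over the fits without 1 array it ran from 0.45 to 0.67. The other elongases tested were close to zero: Elovl1 differed by 0.05 (interval -0.21 to 0.30) and Elovl5 by -0.07 (interval -0.35 to 0.20). The other 3 detected Elovl1 probes ran from -0.14 to 0.05.

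The groups overlapped in Acly, Acss2 and Acsl3, and the sign of each turned with median scaling. Acly, ATP citrate lyase, measured 13.27, 13.05 and 13.02 in KO, against 13.12, 12.91 and 12.76 in WT, a change of 0.19 (interval -0.13 to 0.50). Acss2, which makes acetyl-CoA from acetate, differed by 0.15, and Acsl3, which activates fatty acids, by 0.14. Fasn, fatty acid synthase, was near background. It measured 5.05, 5.09 and 5.43 in KO, with detection on 1 array, against 5.43, 5.33 and 5.06 in WT, with detection on 2. The change of -0.08 had an interval of -0.44 to 0.27.

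The desaturases split by type. The stearoyl-CoA desaturases, which make monounsaturated acyl chains, both had lower values in KO. Scd1 measured 9.52, 9.69 and 9.54 in KO, against 9.87, 9.76 and 9.62 in WT, a change of -0.17 (interval -0.44 to 0.10), and its groups overlapped in KO replicate 2 and WT replicate 3. Scd2 measured 10.92, 10.49 and 10.55 in KO, against 10.90, 10.73 and 10.82 in WT, a change of -0.16 (interval -0.49 to 0.17), with KO replicate 1 above every WT value. The desaturases of polyunsaturated chains, Fads1 and Fads2, had higher values by 0.12 and 0.13, and by 0.10 and 0.19 on their second probes. The second Fads1 probe was near background, at 5.42, 5.74 and 4.66 in KO, against 4.97, 5.68 and 4.87 in WT. With median scaling the changes of Fads1 and Fads2 were -0.11 and -0.07. For the brighter Fads1 probe all 3 KO values, 12.56, 12.60 and 12.52, lay above the WT values of 12.49, 12.48 and 12.36. The difference between these types of desaturase was not tested, and the unadjusted p of the 4 genes ran from 0.189 to 0.359. Scd1 and Scd2 are similar in sequence, and whether their probes also read each other's RNA was not tested.

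The SREBP regulators split as well: 2 of 4 had higher and 2 lower values in KO, with a median log2 change of 0.11, and 0 passed the adjusted test. Srebf2 encodes the SREBP that mainly drives sterol genes. It measured 11.14, 10.72 and 10.74 in KO, against 10.43, 10.50 and 10.52 in WT. All its KO values lay above its WT values, with KO replicate 1 the highest, and the change was 0.38 ± 0.14 (SE, adjusted p 0.471 in limma). A second Srebf2 probe gave 0.13. Scap, the SREBP escort, measured 8.69, 8.99 and 8.98 in KO, against 8.38, 8.52 and 8.62 in WT, a change of 0.38 ± 0.13 (adjusted p 0.438 in limma), and again the groups did not overlap. Its second probe gave 0.41, though there KO replicate 1 was the highest array at 6.98, while on the brighter probe it was the lowest KO array.

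Srebf1, which mainly drives fatty acid genes, measured 6.66, 6.25 and 6.18 in KO, against 6.69, 6.70 and 6.25 in WT, a change of -0.18 with an interval of -0.61 to 0.24. Insig1, the sterol-dependent brake that is itself an SREBP target, varied more than almost any other feature. It measured 7.61, 9.12 and 8.58 in KO, against 8.90, 8.23 and 8.68 in WT. Its within-group SD of 0.59 was larger than that of 98.7% of features, and the change of -0.17 ± 0.37 (SE) had an interval of -1.02 to 0.69. A second Insig1 probe had the same order of arrays within each group and gave -0.06. A further probe gave 0.51, with KO replicate 1 its highest array at 8.63. Without KO replicate 1 the change of the brightest Insig1 probe was 0.25, and the median of the regulators was also 0.25.

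Of the sterol transport and LXR genes, 2 of 4 were tested, and both had a mean in KO at or below that in WT. Stard4 encodes a sterol carrier that moves cholesterol between membranes. It measured 9.90 ± 0.51 in KO and 9.91 ± 0.17 in WT (SD, n = 3 each), with the lowest and the highest value of all 6 arrays both in KO. Abcg1, the LXR-driven sterol exporter, measured 6.08, 5.41 and 5.74 in KO, against 5.75, 6.60 and 6.37 in WT. The log2 change of -0.50 ± 0.25 (SE) was the lowest among the members, but the groups overlapped through KO replicate 1 and WT replicate 1, and the adjusted p was 0.608 in limma. Without WT replicate 1 it was -0.73.

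Set side by side, the median log2 changes were 0.29 for the mevalonate branch, 0.11 for the sterol branch, 0.12 for the fatty acid branch, 0.11 for the SREBP regulators and -0.25 for the transport and LXR genes, against 0.00 for all features. Deviations were taken from each gene's WT mean, so the WT arrays of a list balance out by construction. The mean deviation of the mevalonate branch was above every WT array on all 3 KO arrays. It was 0.19, 0.34 and 0.32 on KO replicates 1, 2 and 3, against -0.03, 0.02 and 0.01 on the WT replicates. On KO replicate 1, Mvd raised this mean (10.47, WT mean 9.69) and Mvk lowered it (5.30, WT mean 5.61). By the median over the 5 genes, KO gave 0.21, 0.20 and 0.48, against -0.03, 0.03 and 0.01 in WT. The sterol branch gave means of -0.11, 0.24 and 0.11 on the KO arrays, against 0.03, -0.06 and 0.03 on the WT arrays. The fatty acid branch gave means of 0.07, 0.09 and 0.08 on the KO arrays, against 0.09, -0.04 and -0.05 on the WT arrays. WT replicate 1 thus lay level with KO. The regulators gave means of -0.01, 0.23 and 0.09 on the KO arrays, against 0.07, -0.05 and -0.02 on the WT arrays. By the median over the 4 regulators, at 0.15, 0.36 and 0.12 on the KO arrays, against 0.05, 0.01 and 0.06 on the WT arrays, all KO arrays lay above all WT arrays. Relative to the median of all features, the mevalonate median stayed between 0.17 and 0.40 over all 17 alternatives, and that of the sterol branch between 0.00 and 0.24. These medians rest on few genes (5 in the mevalonate branch), and no test was made of the difference between branches.

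**Figure D4:**
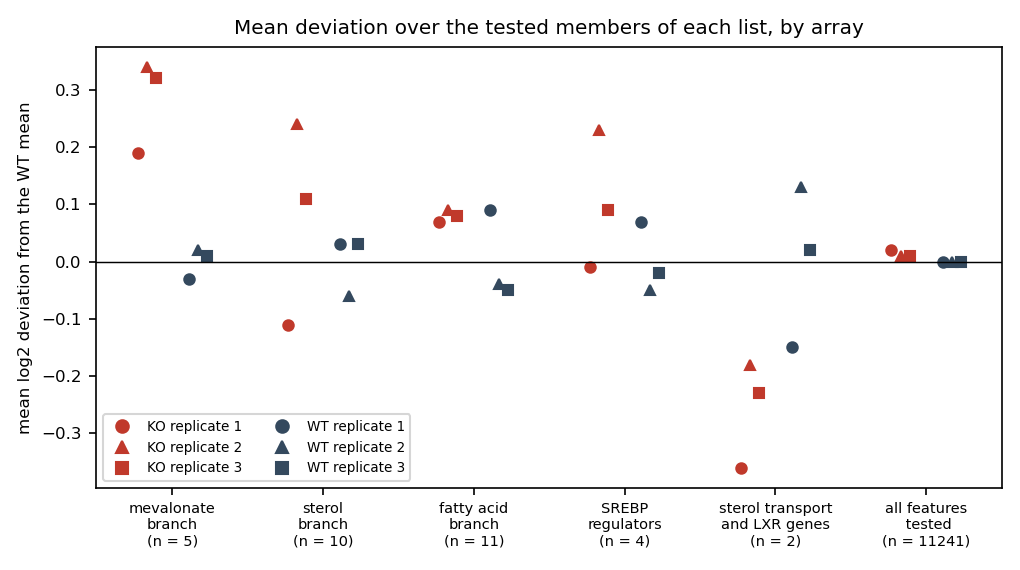
Mean log2 deviation from the WT mean over the tested members of each list, on each array (KO arrays left, WT arrays right within a list). The mevalonate points of KO lie between 0.19 and 0.34, the sterol points of KO spread from -0.11 to 0.24, and the mean over all features is 0.00 to 0.02.

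Many sterol branch genes, and some other members, shared an order of arrays within each group. The arrays compared here were singled out from these values and not in advance. In 7 of the 10 sterol genes KO replicate 1 was the lowest KO array, as in 43.4% of all features, and in 7 of 10 WT replicate 2 was the lowest WT array, as in 36.7% of all features. Both held at once in 5 of the 10 sterol genes (Cyp51, Msmo1, Nsdhl, Hsd17b7 and Dhcr7) and in 18.4% of all features. Both also held in 4 of the 11 fatty acid genes (Acss2, Acsl3, Elovl5 and Fads2), in Insig1 and in Stard4. Over all lists this made 11 of 32 members (34.4%). They held in 0 of the 5 mevalonate genes, and not on the further Insig1 probe that gave 0.51. Over all features, KO replicate 1 and WT replicate 2 deviated from their group means with a correlation of 0.26. This was the highest among the pairings of a KO with a WT array, which ran down to -0.27. Deviations within a group cancel out, so these correlations depend on each other. Cyp51 measured 10.46, 11.05 and 10.84 in KO, against 10.83, 10.42 and 10.76 in WT. Nsdhl measured 9.78, 10.54 and 10.33 in KO, against 10.20, 9.91 and 10.20 in WT, so the arrays of each group differed by more than the group means did. KO replicate 1 was also the dimmest array and the one least like the others across genes (mean r 0.981, against 0.990 to 0.991), and the part of array quality in these values was not tested.

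**Figure D5:**
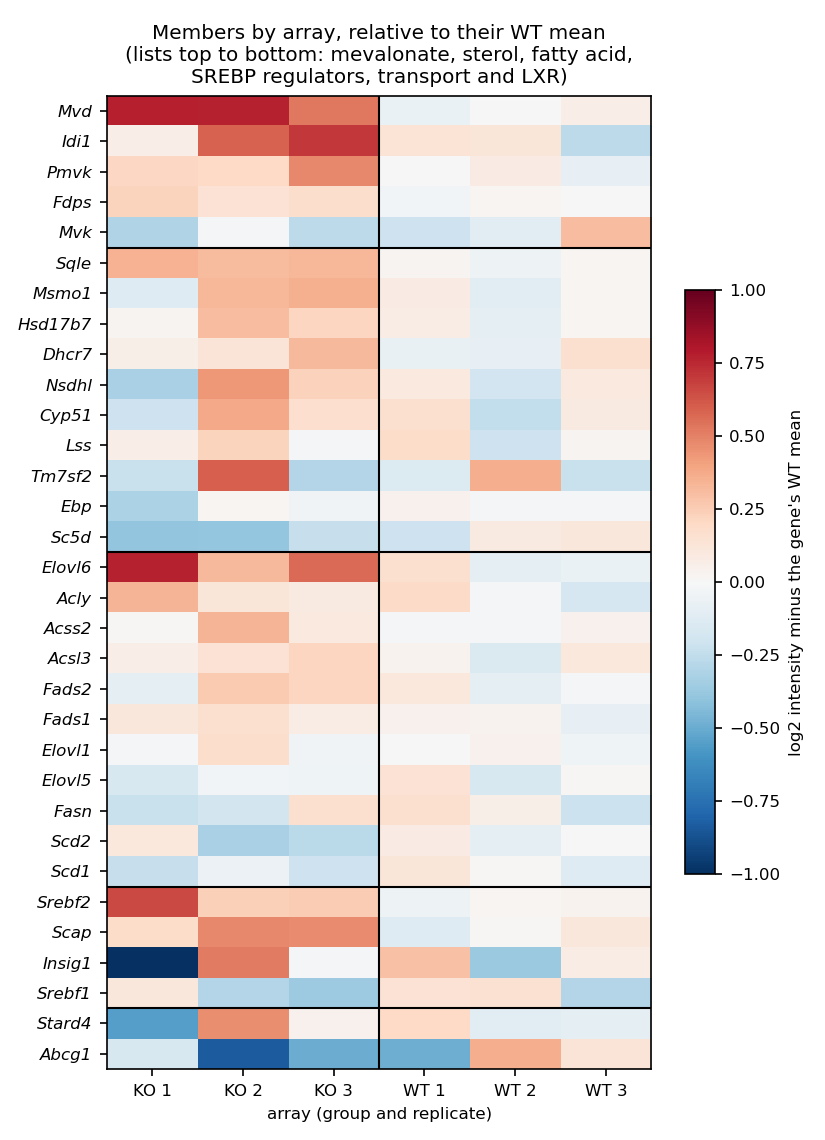
Log2 intensity of each tested member on each array minus the gene's WT mean, KO arrays left and WT arrays right of the vertical line, lists separated by horizontal lines. Mvd, Sqle, Elovl6, Srebf2 and Scap are above the WT mean on all 3 KO arrays, whereas Nsdhl, Cyp51, Insig1 and Stard4 are below it on KO replicate 1 and on WT replicate 2.

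Other genes of these pathways, from lists chosen by function with earlier results known, were counted in the same fit. Of these genes, 0 passed the adjusted test. Of 17 sterol companions (regulators, transport and storage) 9 were tested, 6 with higher and 3 with lower values in KO, a median of 0.04. At an unadjusted p under 0.05 there was 1 gene, higher in KO as were 5.00% of all features. That gene was Idi2, the neighbour and relative of Idi1. It measured 6.38, 5.85 and 5.89 in KO, with detection on all 3 arrays, against 5.15, 5.91 and 5.07 in WT, with detection on 1. Idi2 met the detection filter through the KO arrays, where it was higher, so its p is no independent support for a difference. The change was 0.66 ± 0.25 (SE, adjusted p 0.477 in limma), the groups overlapped through WT replicate 2, and cross-reading between Idi1 and Idi2 probes was not tested. Of 13 genes that use isoprenoids (prenyl transfer, ubiquinone and dolichol synthesis) 11 were tested, 5 with higher and 6 with lower values, a median of -0.01, and 0 at an unadjusted p under 0.05. Of 24 fatty acid companions 11 were tested, 3 with higher and 8 with lower values, a median of -0.07. At an unadjusted p under 0.05 there were 2, both lower in KO, as were 4.27% of all features. These were Hacd1, a dehydratase of fatty acid elongation, at 10.78 ± 0.11 in KO and 11.11 ± 0.08 in WT, and Acsl6, an acyl-CoA synthetase, at 5.40 ± 0.05 in KO and 5.68 ± 0.13 in WT (SD, n = 3 each).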

How the data were processed

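Total RNA (10 ng per sample) was amplified and biotin-labelled, per the labels' protocols. The deposited table of the whole series gives each probe's linear intensity and its detection p-value on every array, per the file headers. The intensities were not background-subtracted or normalized, with array medians of 133.8 to 153.5. A second deposited table holds the authors' log2 values, which equal quantile-normalized log2 intensities within 5e-05, with an array median of 7.2 and no centring. The scanner and its software are not stated here.

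R 4.3.3 and limma 3.58.1 were used, with neqc for the intensities (background from detection p-values, offset 16, quantile normalization, log2). Quantile normalization hides a shift of most genes one way. Probes with detection p under 0.05 on at least 3 arrays were kept (16287 of 45281), the brightest per gene was used, and unnamed probes stayed separate, giving 8836 named genes and 2405 unnamed probes. Of all probes, 34885 had 1 symbol, 18 several and 10378 none here. KO was compared with WT in limma (lmFit, eBayes, no covariates) with Benjamini-Hochberg adjustment over the 11241 features. Intervals are 95%. Where a group was undetected on all arrays, the bound took, per array, the lowest signal of a detected probe, or the probe's own where that was higher. The number of arrays limits precision.

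The members and lists were chosen with earlier results of these data known. Array values are given for the 14 tested members with the smallest p, for Srebf1, Srebf2, Scap and Insig1, and, where tested, for Hmgcs1, Dhcr7, Fasn, Acaca, Scd1 and Scd2, and companions are named at an unadjusted p under 0.05. Values of Mvk, Stard4, Fads1, Ebp, Cyp51 and Nsdhl were added after their values were seen. Alternatives were other background corrections, scalings, filters and probe rules, the authors' values, array weights, a replicate block, a prior that was trended and robust, and leaving out each array. Promoter windows came from RefSeq (GRCm38.p6). The fit was tested on simulated data. Same-numbered KO and WT samples did not deviate together (correlations of -0.1, -0.27 and 0.15), so the numbers were not taken as pairs.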

Additional observations from a re-analysis of the deposited data

How the results depend on the processing

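The counts, list medians and changes of the 32 members were recomputed under 11 alternatives that kept all arrays and 6 that left out 1 array. Mvk, Idi1, Fasn and Abcg1 had no value under the stricter detection filter, which they did not pass. Alternatives were not run for the companion genes, the order of arrays or the motif medians. The count of all features with an adjusted p under 0.05 in limma, 7 as reported, was 30 with normexp, 36 without background correction, 23 with median scaling, 36 in the authors' deposited values, 17 with the stricter detection filter, 119 with array weights and 47 with a trended robust prior, and 2 to 9 when 1 array was left out. With the replicate number as a block, the count was 2. Members past that threshold, 0 as reported, were 1 (Mvd) with normexp, without background correction, in the authors' values, with array weights and with the trended robust prior, and 0 whichever array was left out. The count at an unadjusted p under 0.05 with higher values in KO, 7 as reported, was 1 with median scaling, 5 with the replicate block, and 3 to 10 without 1 array. The lower count, 1 as reported, was 0 with normexp, without background correction, in the authors' values and with the trended prior, 3 with median scaling and with array weights, and 0 to 2 without 1 array. Shares of all features at that unadjusted level were not counted under these alternatives. The mevalonate median, 0.29, was 0.18 without background correction and in the authors' values, 0.12 with median scaling, and 0.20 to 0.34 without 1 array. With median scaling the sterol median was -0.09, the fatty acid median -0.10, the regulator median -0.08 and the transport and LXR median -0.39, on a scale where the median of all features was -0.17. Without 1 array these medians ran from 0.00 to 0.24, from 0.05 to 0.14, from 0.10 to 0.25 and from -0.32 to -0.19. The transport and LXR median was also -0.09 without background correction and in the authors' values, -0.08 without a filter and -0.01 with the stricter filter, where fewer members were tested. Median scaling also turned the sign of Fdps (-0.07), Lss (-0.10), Cyp51 (-0.09), Tm7sf2 (-0.12), Msmo1 (-0.03), Nsdhl (-0.08), Hsd17b7 (-0.01), Dhcr7 (-0.02), Acly (-0.06), Acss2 (-0.04), Elovl1 (-0.18), Fads1 (-0.11), Fads2 (-0.07) and Acsl3 (-0.06). Array weights turned Fasn (0.11), Insig1 (0.05) and Stard4 (0.19), the mean of a gene's probes turned Elovl1 (-0.02) and Insig1 (0.09), and cyclic loess turned Stard4 (0.03). Without 1 array, Lss ran from -0.01 to 0.18, Cyp51 from -0.02 to 0.27, Tm7sf2 from -0.25 to 0.21, Nsdhl from -0.04 to 0.34, Elovl1 from -0.02 to 0.09, Insig1 from -0.51 to 0.25 and Stard4 from -0.25 to 0.26. The cause was not tested for any of these. The change of Idi1, a dim member, was 0.46 as reported and 0.15 without background correction. With 3 arrays a group, the number of arrays limits precision.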
